A study of Mus musculus with 9 samples.

Results

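MHC class I and peptide loading genes were followed across blood stem and progenitor cells of young, aged and CASIN-treated aged mice. The genes were taken by symbol from the 31053 genes of each deposited count matrix, and 10 of 10 were found: the class I heavy chains H2-K1, H2-D1, H2-Q7 and H2-T23, the light chain B2m, the peptide transporter subunits Tap1 and Tap2, the loading factor Tapbp, and the inducible proteasome subunits Psmb8 and Psmb9. MHC class I molecules carry short peptides from the cell's own proteins to its surface, where CD8 T cells and natural killer cells read them. The proteasome cuts the peptides, TAP moves them into the endoplasmic reticulum, and Tapbp (tapasin) holds an empty heavy chain with B2m beside TAP until a peptide binds. Interferons are known to raise the transcription of most of these genes, and haematopoietic stem cells are known to carry class I molecules at their surface.

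The cells were LSK cells, the lineage-negative, Sca1-positive and cKit-positive fraction of bone marrow that holds the stem cells and their first progeny, from C57BL/6 mice. The 3 young samples came from mice of 10 to 12 weeks and the 3 aged samples from mice older than 80 weeks, all given cyclodextrin, the carrier of the drug. The 3 CASIN samples came from mice older than 80 weeks given CASIN, an inhibitor of the activity of the small GTPase Cdc42, at 25 mg/kg in cyclodextrin. Injections were intraperitoneal, 4 in all and 24 h apart, and all samples were harvested on day 5. Cells were frozen and thawed before 10x Genomics 3' single-cell sequencing. The labels do not state how many mice gave each sample, so p-values measure the spread between samples only. Young 1, young 2, aged 1, CASIN 1 and CASIN 2 were sequenced in batch 1, and young 3, aged 2, aged 3 and CASIN 3 in batch 2.

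Of 32387 barcodes, 15856 cells were kept, 1112 to 2417 per sample, with 17555578 to 35118707 unique molecular identifiers (UMIs, one per captured mRNA molecule) per sample. Libraries shared 0 to 16 cell barcodes pairwise. The batches stood apart before any filter: the median barcode had 2.73 to 4.61% mitochondrial UMIs in batch 1 and 13.02 to 15.53% in batch 2. Samples of batch 1 had 1972 to 2895 barcodes, of which the filter removed 352 to 860. In batch 2 there were 3124 to 6528 per sample, and 1923 to 4111 were removed. The sort markers Kit and Ly6a (Sca1) were at 112 to 225 and 87.9 to 186 CPM (UMIs of a gene scaled to the same library total) in every sample, and the lineage genes Cd8a, Cd5 and Ly6g reached 1.36 CPM at most, while Itgam (Cd11b) was at 3.59 to 10.8 CPM. Summed markers reached 47.8 CPM over 4 globin genes and 28.4 CPM over 6 stromal and endothelial genes. The 8 macrophage and neutrophil genes summed to 2.96 to 88.9 CPM in 8 samples, aged 1 and aged 2 included (28.3 and 29.3 CPM), and to 420 CPM in aged 3 alone.

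B2m lies on chromosome 2 (mm10) and the other genes lie on chromosome 17, in and around the H2 complex. H2-K1 spans chr17:33996017-34000347 on the minus strand and H2-D1 chr17:35262730-35267499 on the plus strand. Tap1 (chr17:34187553-34197225, plus strand) and Psmb9 (chr17:34181987-34187764, minus strand) are transcribed away from each other, with RefSeq start sites 226 bases apart. Psmb8 and Tap2 follow on the plus strand at chr17:34197721-34201454 and chr17:34203527-34216321.

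The promoters of the heavy and light chains are shown because each holds a match to an interferon motif. Those of H2-K1, H2-D1 and H2-Q7 also hold the NF-kappaB motif that class I genes are known for. RefSeq windows (GRCm38.p6) of 250 bases before to 50 after the start were matched for 9 of 10 genes, all but Tap2, and searched on both strands for enhancer A of class I genes (an NF-kappaB motif, spelled by the first run of capitals in H2-K1), TTTCACTTC (the interferon element of class I genes) and the general interferon-stimulated element (GAAA, any 2 bases, GAAA). The H2-K1 window is chr17:34000298-34000597 on the minus strand, that of H2-D1 chr17:35262844-35263143 on the plus strand and that of H2-Q7 chr17:35438905-35439204 on the plus strand. The B2m window is chr2:122147437-122147736 on the plus strand and that of H2-T23 chr17:36032652-36032951 on the minus strand. Each is written 5′ to 3′ on the gene's strand with the matches in capitals.
H2-K1: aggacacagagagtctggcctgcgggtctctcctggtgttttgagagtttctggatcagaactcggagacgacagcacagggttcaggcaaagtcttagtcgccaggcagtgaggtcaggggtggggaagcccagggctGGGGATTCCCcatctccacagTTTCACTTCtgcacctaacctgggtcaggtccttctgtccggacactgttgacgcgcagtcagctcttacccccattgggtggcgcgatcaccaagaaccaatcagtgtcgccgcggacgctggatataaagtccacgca
H2-D1: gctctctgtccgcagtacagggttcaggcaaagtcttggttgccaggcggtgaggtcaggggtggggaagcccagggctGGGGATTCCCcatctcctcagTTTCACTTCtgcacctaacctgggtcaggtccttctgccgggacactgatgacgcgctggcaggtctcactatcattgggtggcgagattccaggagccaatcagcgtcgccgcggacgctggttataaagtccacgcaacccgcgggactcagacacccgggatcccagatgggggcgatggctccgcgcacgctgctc
H2-Q7: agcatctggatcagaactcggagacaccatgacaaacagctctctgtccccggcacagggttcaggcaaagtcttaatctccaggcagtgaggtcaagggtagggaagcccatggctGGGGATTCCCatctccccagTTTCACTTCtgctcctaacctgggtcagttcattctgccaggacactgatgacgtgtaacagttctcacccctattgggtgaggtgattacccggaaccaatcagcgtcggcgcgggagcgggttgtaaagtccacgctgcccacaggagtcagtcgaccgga
B2m: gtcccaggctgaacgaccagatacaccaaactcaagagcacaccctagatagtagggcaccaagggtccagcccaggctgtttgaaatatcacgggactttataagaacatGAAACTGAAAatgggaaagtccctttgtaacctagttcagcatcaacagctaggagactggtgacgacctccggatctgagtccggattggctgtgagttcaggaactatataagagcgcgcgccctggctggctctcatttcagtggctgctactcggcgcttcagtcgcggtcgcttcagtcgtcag
H2-T23: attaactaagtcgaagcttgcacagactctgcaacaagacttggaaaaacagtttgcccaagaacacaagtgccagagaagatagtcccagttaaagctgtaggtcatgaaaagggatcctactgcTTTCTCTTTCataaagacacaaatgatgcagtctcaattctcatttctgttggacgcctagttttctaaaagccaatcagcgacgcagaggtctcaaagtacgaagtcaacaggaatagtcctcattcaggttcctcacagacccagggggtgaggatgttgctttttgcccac

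H2-K1, H2-D1 and H2-Q7 held both class I motifs in the same order, with 11, 11 and 10 bases between them. Of all 32851 promoters, 0.107% held the enhancer A letters, 0.505% TTTCACTTC and 0.0152% both, and the 5 windows with both belonged to 4 genes, these 3 and H2-Q6. B2m and H2-T23 held a match to the general element in place of them, on opposite strands, which 3.44% of promoters did. The windows of Tap1, Tapbp, Psmb8 and Psmb9 held no match to these 3 motifs. H2-K1, H2-D1, H2-Q7, H2-Q4 and H2-Q6 are related genes, and how alike their transcripts are was not measured here. Reads that fit more than 1 of them could have been dropped or misplaced, so their counts are less certain than those of the other genes.

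The first question was whether the genes differ with age in all LSK cells. H2-Q7, a class Ib heavy chain of the Q region, was at 248, 211 and 393 CPM in young samples 1 to 3, at 269, 720 and 615 CPM in aged samples and at 295, 383 and 539 CPM in CASIN samples. Young and aged samples overlapped, since young 3 was above aged 1. Within a batch they did not: aged 1 was above both young samples of batch 1, and both aged samples were above young 3 in batch 2. With the batch as a term, edgeR gave a log2 fold change of 0.56 ± 0.16 (SE, n = 3 and 3) for aged against young and an adjusted p of 0.0832 (Benjamini-Hochberg over 13642 genes).

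H2-K1, a classical heavy chain, was at 1422, 1280 and 1891 CPM in young, 1523, 2637 and 2509 CPM in aged and 1520, 1652 and 2468 CPM in CASIN samples. Aged samples were above the young samples of their own batch, by 0.17 in batch 1 and 0.44 in batch 2 on the log2 scale. The second classical heavy chain, H2-D1, was at 1218, 1140 and 1446 CPM in young, 1359, 1753 and 1800 CPM in aged and 1341, 1410 and 1725 CPM in CASIN samples. Its aged minus young difference was 0.21 in batch 1 and 0.30 in batch 2. The fitted log2 fold changes of aged against young were 0.32 ± 0.08 for H2-K1 (edgeR adjusted p = 0.0661) and 0.26 ± 0.06 for H2-D1 (edgeR adjusted p = 0.0515).

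B2m, the light chain of every class I molecule, was at 1200, 1176 and 1931 CPM in young, 1277, 2172 and 2353 CPM in aged and 1290, 1474 and 2058 CPM in CASIN samples. The log2 fold change of aged against young was 0.20 ± 0.08 (edgeR adjusted p = 0.194). H2-T23, which encodes Qa-1, the ligand of the natural killer receptor NKG2A, was at 232, 247 and 260 CPM in young, 319, 259 and 279 CPM in aged and 293, 371 and 272 CPM in CASIN samples. Every CASIN sample was above every young sample, while aged 2 fell within the young range. Its fitted difference from young was 0.26 ± 0.12 in aged samples (edgeR adjusted p = 0.235) and 0.32 ± 0.12 in CASIN samples (edgeR adjusted p = 0.142).

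Tap2 pointed the other way from the heavy chains. It was at 123, 120 and 181 CPM in young, 83.2, 126 and 155 CPM in aged and 93.8, 108 and 129 CPM in CASIN samples. In each batch every aged and CASIN sample was below every young sample, with aged minus young differences of -0.54 and -0.37 on the log2 scale. The fitted log2 fold change was -0.41 ± 0.11 for aged against young (edgeR adjusted p = 0.0769) and -0.36 ± 0.11 for CASIN against young (edgeR adjusted p = 0.0965).

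The other subunit of the transporter, Tap1, was at 79.0, 67.4 and 81.4 CPM in young, 48.7, 119 and 90.9 CPM in aged and 64.0, 79.9 and 85.4 CPM in CASIN samples. Its aged minus young difference had opposite signs in the batches, -0.57 and 0.35. The same was true of Psmb8, at -0.33 and 0.10, and of Psmb9, at -0.44 and 0.29, so the fitted values of these 3 genes (-0.03 for Tap1, -0.08 for Psmb8 and -0.01 for Psmb9) average batches of opposite sign. Tapbp was at 62.2, 60.7 and 89.2 CPM in young, 65.1, 115 and 107 CPM in aged and 68.1, 73.4 and 104 CPM in CASIN samples, with a fitted difference of 0.22 ± 0.09 for aged against young (edgeR adjusted p = 0.169).

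**Figure D1:**
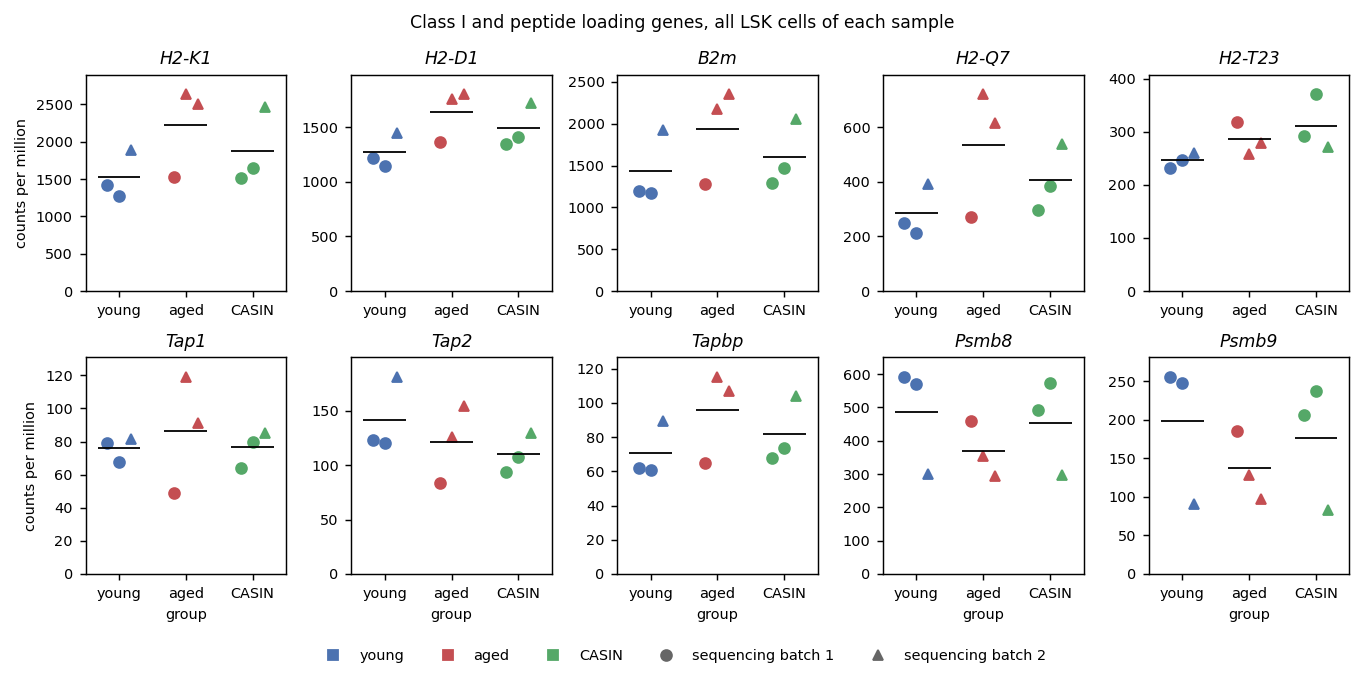
Level of each of the 10 genes in CPM (vertical axis, from 0) for young, aged and CASIN samples (horizontal axis); points are samples, circles from sequencing batch 1 and triangles from batch 2, and lines are group means of 3. H2-Q7 ran from 211 to 720 CPM, and the triangles of Psmb8 and Psmb9 lay below all their circles in every group.

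None of the 10 genes passed an adjusted p of 0.05 in aged against young, where 4.1% of all genes were called, nor in CASIN against young, where 4.27% were. Before adjustment, 6 of 10 were below 0.05 in each of these comparisons, 5 higher and 1 lower, against 22% and 24% of all genes. The members were B2m, Tapbp, H2-K1, H2-D1, H2-Q7 and Tap2 in aged samples, and H2-T23 in place of B2m in CASIN samples. The median log2 fold change of the 10 was 0.21 in aged against young (0.015 over all genes) and 0.18 in CASIN against young (-0.0024 over all genes). These comparisons share the young samples. How many genes were called depended on the test: DESeq2's Wald test, which called 8.32% of all genes in aged against young, called 4 members there, H2-K1, H2-D1 and H2-Q7 higher and Tap2 lower. In CASIN against young it called 9.3% of genes and 2 members, H2-Q7 higher and Tap2 lower. Without aged 1, the edgeR test of aged against young called H2-Q7 at a log2 fold change of 0.82 (adjusted p = 0.0365). Over all fits with 1 sample left out, this fold change ran from 0.45 to 0.82.

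In CASIN against aged, no gene of the 13642 was called (0%), 439 (3.22%) were below 0.05 before adjustment in edgeR, and none of the 10 was. DESeq2's Wald test also called 0 genes there. The fitted differences ran from -0.17 ± 0.18 for Psmb9 to 0.05 ± 0.12 for H2-T23, with a median of -0.04. Within batches, every member but H2-T23 (0.05 and 0.02) was higher in CASIN than in aged samples in batch 1 and lower in batch 2. H2-Q7 was at 0.32 in batch 1 and -0.30 in batch 2, Tap1 at 0.55 and -0.28 and Psmb9 at 0.25 and -0.41. Psmb8 was at 0.21 and -0.12 and Tap2 at 0.27 and -0.11. Aged 1 was the only aged sample of batch 1, and CASIN 3 the only CASIN sample of batch 2.

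**Figure D2:**
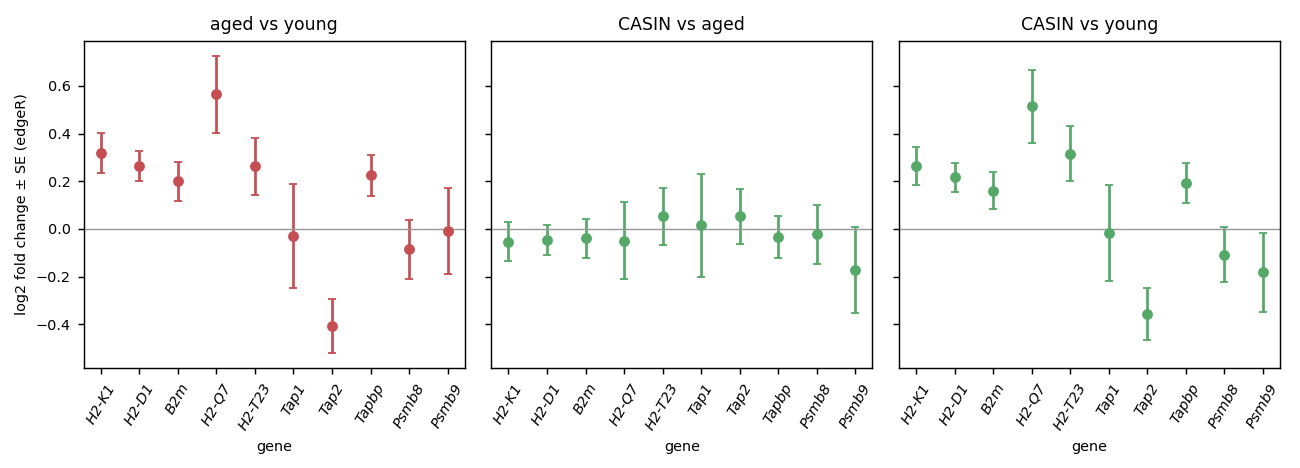
Fitted log2 fold change (vertical axis) of the 10 genes (horizontal axis) in aged against young, CASIN against aged and CASIN against young, all LSK cells, from edgeR with the sequencing batch as a term; bars are standard errors and the line marks 0. H2-Q7 at 0.56 and Tap2 at -0.41 stood at the ends of the aged against young panel, and all values of CASIN against aged lay between -0.17 and 0.05.

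Of 29 genes on a list of class I genes, regulators and loading factors, 27 were in the files and 24 were tested. H2-T3, the class I-like thymus leukaemia antigen, was the one gene called in aged against young, higher with a log2 fold change of 3.94 ± 0.57 (edgeR adjusted p = 0.0111). It was barely detected, at 0.171, 0.0953 and 0.113 CPM in young, 3.48, 0.677 and 0.386 CPM in aged and 2.28, 1.66 and 0.935 CPM in CASIN samples, although no young sample reached an aged or CASIN one. In CASIN against young, 2 of 24 were called, H2-T3 (3.79 ± 0.56, edgeR adjusted p = 0.0115) and Nlrc5. Nlrc5 is the transactivator that assembles on class I promoters. It was at 7.94, 8.10 and 7.40 CPM in young, 10.8, 16.1 and 11.4 CPM in aged and 12.5, 16.5 and 13.3 CPM in CASIN samples, so no aged or CASIN sample reached down to a young one. Its log2 fold change was 0.83 ± 0.18 in CASIN against young (edgeR adjusted p = 0.0364) and 0.71 ± 0.19 in aged against young (edgeR adjusted p = 0.0722). In CASIN against aged 0 of 24 were called.

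Of 8 MHC class II genes, 3 were called in aged against young, H2-Aa at 1.42 ± 0.26, H2-Eb1 at 1.57 ± 0.33 and Cd74, the class II chaperone, at 1.33 ± 0.26 (edgeR adjusted p of 0.0235, 0.0328 and 0.0282). The same 3 were called in CASIN against young. Of 29 interferon response genes tested, 1 was called in each of these comparisons, Ifitm3, at 0.53 ± 0.10 in aged against young (edgeR adjusted p = 0.0282). Of 14 subunits of the constitutive core proteasome, 0 were called in any comparison. No marker of macrophages and neutrophils, red cells or stroma was called. The stem cell markers Procr and Slamf1 were higher in both comparisons with young, by 0.99 ± 0.15 and 2.43 ± 0.36 in aged samples (edgeR adjusted p of 0.0123 and 0.0122), and the part that the mixture of cells had in the values above was not tested there. In these sums, more cells of a kind and more mRNA per cell cannot be told apart.

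The second question was where in the LSK compartment the genes are high or low. Cells were thinned to 4000 UMIs each and divided by single genes that are not members. Cells with Procr and no Flt3 (3587, enriched for stem cells) were set against cells with Flt3 and no Procr (3139, enriched for lymphoid-primed progenitors), as paired differences of log2(CPM + 1) in the 9 samples. Heavy chains and B2m were higher in Procr+ cells, and Tap1, Tap2, Psmb8 and Psmb9 were higher in Flt3+ cells.

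In Procr+ cells H2-T23 was at 301, 315 and 296 CPM in young, 399, 362 and 377 CPM in aged and 423, 474 and 362 CPM in CASIN samples. In Flt3+ cells of the same samples it was at 245, 265 and 292 CPM in young, 247, 252 and 277 CPM in aged and 246, 315 and 223 CPM in CASIN samples. Procr+ cells were higher in 9 of 9 samples, by 0.48 ± 0.25 (SD) on the log2 scale (exact sign-flip permutation test, two-sided p = 0.00391, the smallest 9 samples allow, and 0.0133 after adjustment over 2767 genes). In Procr+ cells the young samples lay below all aged and CASIN samples, and in Flt3+ cells the groups overlapped. This describes 1 gene, and the share of all genes that separate the groups this way is not given here. The test of group differences between HSC-like and LMPP-like clusters, given below, called no member.

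H2-K1 was at 1784, 1610 and 2237 CPM in Procr+ cells of young samples, 1817, 3382 and 3141 CPM in aged and 1993, 2023 and 3059 CPM in CASIN samples. Flt3+ cells had 1423, 1256 and 1899 CPM in young, 1200, 2599 and 2714 CPM in aged and 1325, 1449 and 2179 CPM in CASIN samples. The difference was 0.41 ± 0.14, higher in Procr+ cells in 9 of 9 samples. H2-D1 differed by 0.32 ± 0.16 and B2m by 0.21 ± 0.09, also in 9 of 9, and H2-Q7 by 0.33 ± 0.23 in 8 of 9, all but aged 3 (exact permutation p = 0.00781, adjusted 0.0208).

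Tap2 was at 92.8, 94.4 and 167 CPM in Procr+ cells of young samples, 57.4, 99.8 and 127 CPM in aged and 79.1, 93.1 and 95.8 CPM in CASIN samples. In Flt3+ cells it was at 132, 135 and 242 CPM in young, 120, 173 and 220 CPM in aged and 122, 131 and 204 CPM in CASIN samples, a difference of -0.71 ± 0.23. Psmb8, which replaces Psmb5 as a catalytic subunit, fell from a mean of 471 CPM in Flt3+ to 338 CPM in Procr+ cells (-0.50 ± 0.21), and Psmb9, which replaces Psmb6, from 184 to 135 CPM (-0.56 ± 0.30). Tap1 fell from 98.6 to 68.9 CPM (-0.48 ± 0.29). All 4 were lower in Procr+ cells in 9 of 9 samples. Tapbp, at 93.5 and 84.9 CPM, was higher in 7 of 9 samples by 0.15 ± 0.27, which did not pass the exact permutation test (p = 0.145, adjusted 0.214).

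In all, 5 of 10 genes were higher in Procr+ cells, where 17.5% of the 2767 genes were, and 4 of 10 were lower, where 30.8% were. The count of lower members was near its share. Before adjustment 9 of 10 were at 0.05 or below, as 55.1% of genes were. The direction of these 9 genes held in the mean of each batch. The counts were also 5 and 4 in cells without a UMI of the cycling genes Mki67 and Top2a, where 14.1% of genes were higher and 22.4% lower, and in cells without a UMI of 6 interferon-induced genes, where 15.8% and 27.8% were. At 2000 UMIs per cell, H2-Q7 (adjusted p = 0.0766, exact permutation test) and Tap1 (adjusted p = 0.158) no longer passed, and under a mitochondrial limit of 5% H2-Q7 did not (adjusted p = 0.0530). Cells with a single UMI of a marker were counted as positive, and the part of free RNA in this gate was not tested.

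Other class I genes went with the heavy chains. Of 11 genes of the class I list that were expressed highly enough to test, 4 were higher in Procr+ cells, H2-Q6 by 0.40 ± 0.17, H2-T22 by 0.30 ± 0.28, H2-Q4 by 0.29 ± 0.18 and Irf2 by 0.12 ± 0.10. The chaperone Calr (-0.28 ± 0.14) and the proteasome activator Psme1 (-0.20 ± 0.19) were lower. The constitutive core proteasome was lower as well: 9 of 14 subunits were called lower and 0 higher, with a median of -0.21 against -0.07 over all genes. Psmb10, the third inducible subunit, was at 103 CPM in Procr+ and 104 CPM in Flt3+ cells (adjusted p = 0.505, exact permutation test). Its mean log2 difference had opposite signs in the batches, 0.17 in batch 1 and -0.45 in batch 2.

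**Figure D3:**
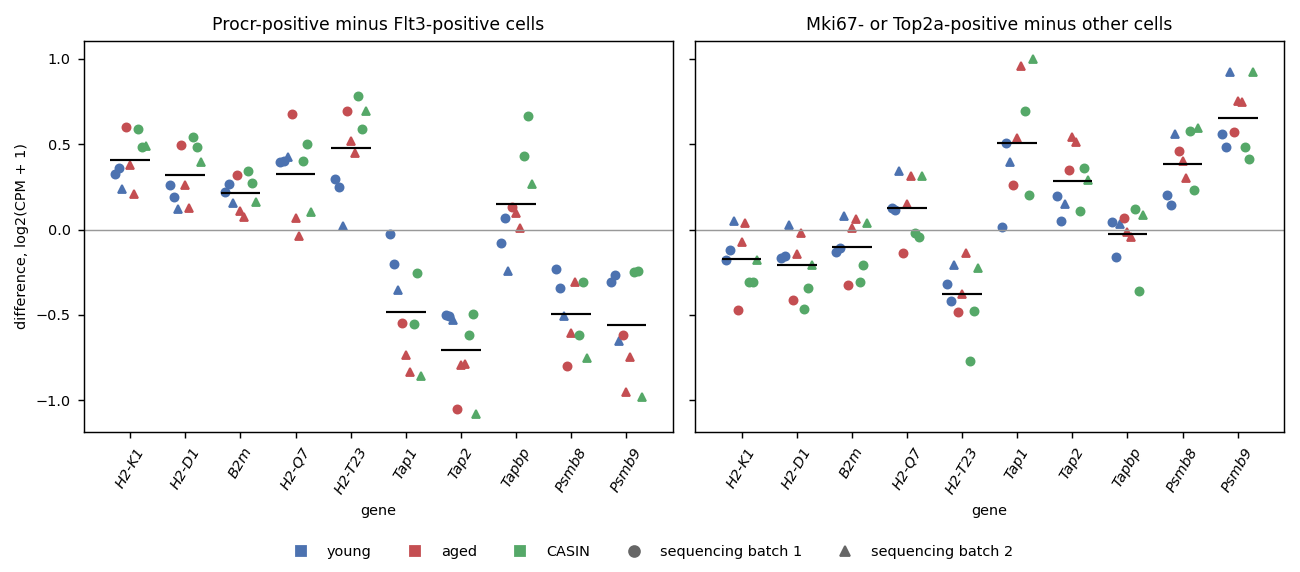
Paired difference of log2(CPM + 1) (vertical axis) of each gene (horizontal axis) between Procr-positive and Flt3-positive cells, left, and between cells with and without Mki67 or Top2a, right; points are samples, coloured by group and shaped by batch, and lines are means of 9. In the left panel H2-K1, H2-D1, B2m and H2-T23 lay above 0 and Tap1, Tap2, Psmb8 and Psmb9 below 0 in 9 of 9 samples.

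Cycling cells were compared next with the other cells. Psmb9 was at 315, 305 and 118 CPM in young, 236, 163 and 118 CPM in aged and 262, 294 and 111 CPM in CASIN samples in the 3480 cells with Mki67 or Top2a. In the 12044 cells without them it was at 213, 218 and 61.9 CPM in young, 158, 96.0 and 69.6 CPM in aged and 187, 220 and 58.3 CPM in CASIN samples. Each sample had more Psmb9 in its cycling cells, by 0.65 ± 0.19 on the log2 scale (exact sign-flip permutation p = 0.00391, adjusted 0.0106). Tap1 (0.51 ± 0.33), Psmb8 (0.39 ± 0.17) and Tap2 (0.28 ± 0.17) were higher in cycling cells in 9 of 9 samples too.

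H2-T23 was lower in cycling cells in 9 of 9 samples, with means of 254 against 330 CPM (-0.38 ± 0.19). H2-D1 was lower in 8 of 9 (-0.21 ± 0.17, exact permutation p = 0.0117, adjusted 0.0243) and H2-K1 in 7 of 9 (-0.17 ± 0.17, exact permutation p = 0.0195, adjusted 0.0368). The H2-K1 call was lost, at adjusted p values of 0.0577 to 0.0703, without any 1 of young 1, young 2, aged 1, aged 2, CASIN 1, CASIN 2 and CASIN 3, and under a mitochondrial limit of 5% (adjusted p = 0.120, exact permutation test). H2-Q7, B2m and Tapbp did not pass, at 0.13 ± 0.17, -0.10 ± 0.16 and -0.03 ± 0.15. Of the members, 4 of 10 were higher in cycling cells, where 33.4% of genes were, and 3 of 10 were lower, where 22.5% were. Both counts were near these shares. Of the 14 constitutive core proteasome genes 13 were higher, with a median of 0.29 against 0.02 over all genes, and of 11 class I list genes 4 were higher (Calr, Psme2, Canx and Pdia3) and 2 lower (Irf1 and Irf2).

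Within Procr+ cells, cells with a UMI of H2-Aa, H2-Ab1 or H2-Eb1 (1631) were compared with cells without one (1956). H2-Q7 was higher in class II-positive cells in 9 of 9 samples by 0.15 ± 0.09 (exact permutation p = 0.00391, adjusted 0.416), B2m in 8 of 9 by 0.10 ± 0.08 (exact permutation p = 0.00781, adjusted 0.491) and H2-T23 in 8 of 9 by 0.13 ± 0.14 (exact permutation p = 0.0195, adjusted 0.60). With no thinning the H2-T23 difference was -0.05 ± 0.14. None of these survived adjustment, 0% of the 2767 genes did, and 6.9% were at 0.05 or below before it. With 9 samples the exact permutation p cannot go below 0.00391. A call after adjustment over 2767 genes therefore needed many genes at that p, and the lack of calls does not show that the cells are alike. H2-D1, at 1787 and 1796 CPM, differed by -0.0035 ± 0.062.

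The Vwf gate, which marks platelet-biased stem cells, could be tested in the 6 aged and CASIN samples, because each young sample had 5 to 10 Vwf+ cells. The smallest p that 6 samples allow is 0.0312, and 0% of genes were called. At that p before adjustment, H2-K1 was higher in Vwf+ cells in 6 of 6 samples (0.16 ± 0.11), and Psmb8 (-0.46 ± 0.26) and Psmb9 (-0.35 ± 0.28) were lower in 6 of 6 (exact permutation tests), where 15.1% of genes reached it. Their adjusted p was 0.207.

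Cells with at least 3 of 6 interferon-induced genes (Isg15, Ifit1, Ifit3, Rsad2, Irf7 and Oasl2) were compared with cells holding none. Before thinning such cells made up 11.2, 9.67 and 2.41% of young, 4.29, 3.16 and 1.90% of aged and 6.65, 6.70 and 1.32% of CASIN samples, so each batch 2 sample had fewer than every batch 1 sample. After thinning, 3 samples of batch 1 had 20 or more of them, young 1, young 2 and CASIN 2, and an exact test could not go below 0.25. Tap1 was at 112 CPM in interferon-high and 69.7 CPM in interferon-negative cells, higher in 3 of 3 samples by 0.67 ± 0.24, and H2-T23 at 428 and 294 CPM, higher in 3 of 3 by 0.54 ± 0.09. B2m, H2-K1, H2-D1, Tap2 and Psmb8 were also higher in 3 of 3, by 0.22 to 0.33. H2-Q7 was higher in 1 of 3 (0.02 ± 0.50), as were Psmb9 (-0.17 ± 0.26) and Tapbp (-0.07 ± 0.36). Without thinning, 9 samples could be used and 0% of genes were called, while 6 of 10 genes were at 0.05 or below before adjustment, as 14.6% of all genes were. The limit on calls given for the class II gate applied here too.

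A clustering from which the members and other MHC genes were left out gave 13 clusters, of which 4 with a name had at least 20 cells in every sample: 3805 MPP3-like, 2702 HSC-like, 2637 LMPP-like and 1351 cycling S-like cells, the last also led by the megakaryocyte genes Pf4 and Itga2b. HSC, MPP and LMPP stand for haematopoietic stem cells, multipotent progenitors and lymphoid-primed multipotent progenitors. HSC-like cells numbered from 52 in young 3 to 629 in aged 1. A cluster of 2636 cells led by Efna3, Grb10 and Meg3, 178 to 529 per sample, received no name and was not fitted. Its H2-T23 was at 352 ± 59.8 CPM and its Tap2 at 94.0 ± 22.3 CPM (SD, n = 9). Whether it holds stem cells too was not tested. Levels between clusters are a description, since the clusters were drawn on the same cells. In HSC-like cells H2-K1 was at 2510 ± 826 CPM (SD, n = 9), H2-T23 at 398 ± 53.5 CPM, Psmb8 at 303 ± 120 CPM and Tap2 at 72.5 ± 18.1 CPM. In LMPP-like cells these were at 1585 ± 461, 245 ± 27.6, 498 ± 121 and 162 ± 47.5 CPM. The ranges over samples of H2-T23, 334 to 515 and 206 to 309 CPM, did not overlap between the 2 clusters, and those of H2-K1 did.

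The 179 interferon-like cells, 12 to 38 per sample, had the most Tap1 of the 9 clusters with at least 10 cells in every sample, at 172 ± 46.7 CPM against 58.17 ± 15.04 CPM in HSC-like and 84.6 ± 24.9 CPM in LMPP-like cells. They also had the most H2-T23, at 499 ± 129 CPM. A cluster led by the histone genes Hist1h1b, Hist1h3c and Hist1h2ab (1027 cells) had the least H2-T23, at 177 CPM, and the most Psmb9, at 263 CPM. In the 5 samples with 11 to 18 granulocyte-like cells, H2-K1 was at 825 ± 221 CPM, H2-T23 at 71.2 ± 25.3 CPM and Psmb8 at 564 ± 172 CPM.

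**Figure D4:**
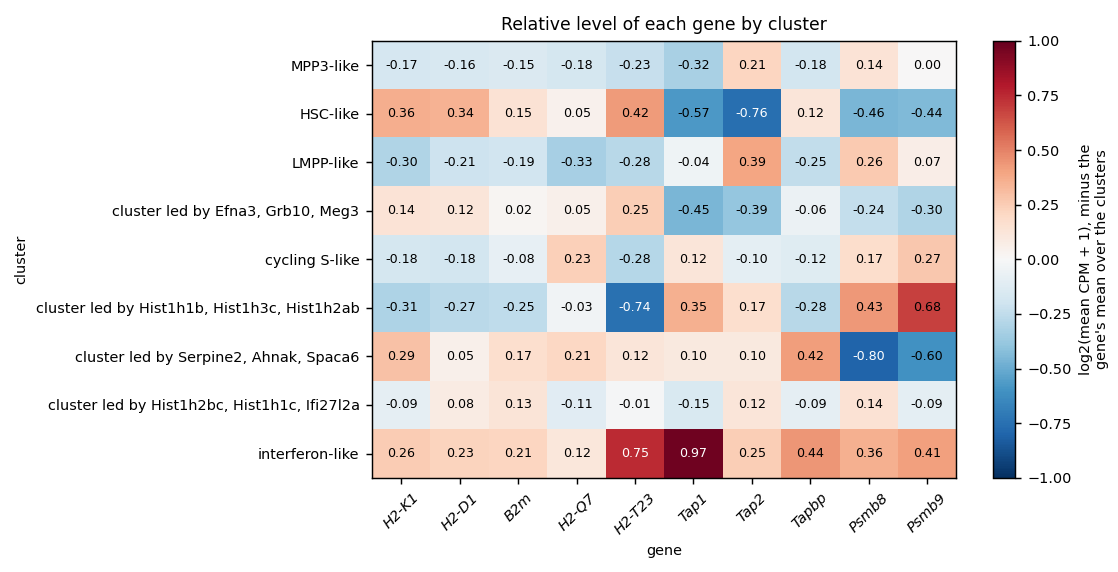
Level of each gene (columns) in the 9 clusters with at least 10 cells in every sample (rows), as log2(mean CPM + 1) over 9 samples minus the gene's mean over the clusters; red is higher and blue lower. HSC-like cells were at 0.36 for H2-K1 and -0.76 for Tap2, and interferon-like cells at 0.97 for Tap1.

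Over the 36 sums of 4 classes and 9 samples, centred within each sample, the genes followed each other in groups. H2-K1 correlated with H2-D1 (Pearson r = 0.97), H2-T23 (0.95) and B2m (0.92), and inversely with Psmb8 (-0.95), Tap2 (-0.89) and Psmb9 (-0.82). Tap1 and Psmb9 correlated at 0.91, Psmb8 and Tap2 at 0.92, and Psmb8 and Psmb9 at 0.89. H2-Q7 was at 0.44 with H2-K1, 0.56 with B2m, 0.30 with H2-T23, -0.36 with Psmb8 and -0.55 with Tap2. The 36 sums share libraries and depth, so these are descriptions across sums. Centring leaves the differences among 4 classes, repeated over 9 samples, so the sums are not 36 independent observations. The search for genes most alike took the 2751 genes at 50 CPM or more, a count that includes the members, and skipped the members. The 3 most alike were Laptm4a, Rabac1 and Tmem176a for H2-K1 (0.98 to 0.96) and Malat1, Tmem176a and Ifitm3 for H2-D1. They were Aplp2, Cpq and Tnrc6a for B2m, and Malat1, mt-Co3 and mt-Atp6 for H2-T23. For H2-Q7 they were Car2, Rnf187 and Tssc4 (0.90 to 0.88). They were Pdap1, Nsmce1 and Atp5c1 for Tap1, Gmfg, Fam117a and Arhgdib for Tap2, Ifitm3, Smarca2 and Laptm4a for Tapbp, Nme4, Idh2 and Mrpl34 for Psmb8, and Abracl, Psma5 and Selenoh for Psmb9.

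The third question was whether age or CASIN moved the genes within a class. In HSC-like cells 4.73%, 0% and 6.92% of genes were called in aged against young, CASIN against aged and CASIN against young, and 0 of 10 members were in each. The corresponding percentages were 0.457, 0 and 0.334 in MPP3-like, 0.188, 0 and 0.0844 in LMPP-like and 0.908, 0 and 0.662 in cycling S-like cells, again with 0 of 10. Before adjustment, 5, 0 and 6 members were below 0.05 in HSC-like cells, where 16.5, 3.12 and 19% of genes were, and 5, 0 and 2 in MPP3-like cells, where 12.1, 6.58 and 9.63% were. The counts were 2, 0 and 1 in LMPP-like cells (8.69, 5.13 and 6.07% of genes) and 2, 0 and 1 in cycling S-like cells (12.1, 6.13 and 11.8% of genes). DESeq2's Wald test called 1 member in these fits, H2-Q7 in MPP3-like cells of aged against young (log2 fold change 0.72, adjusted p = 0.0126), where it called 0.852% of genes.

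H2-Q7 had the largest fitted difference of the 10 genes in aged against young in 3 of the 4 classes. It was 0.72 ± 0.18 in MPP3-like (edgeR adjusted p = 0.0961), 0.59 ± 0.22 in LMPP-like (edgeR adjusted p = 0.441) and 0.37 ± 0.16 in cycling S-like cells (edgeR adjusted p = 0.365). In HSC-like cells it was 0.34 ± 0.14 (edgeR adjusted p = 0.191), and Tap2, at -0.43 ± 0.15, was further from 0 (edgeR adjusted p = 0.118). Without aged 1 the H2-Q7 difference was 1.00 in both MPP3-like and LMPP-like cells, with edgeR adjusted p of 0.0186 and 0.0451. There 1.07% and 0.349% of genes were called. In these fits too, the aged samples were all of batch 2, where young 3 was the only young sample. Over all fits with 1 sample left out, the H2-Q7 difference ran from 0.56 to 1.00 in MPP3-like and 0.31 to 1.00 in LMPP-like cells. Without young 3 the smallest edgeR adjusted p of any member was 0.44 in MPP3-like and 0.91 in LMPP-like cells. H2-T23 came nearest to a call in HSC-like cells of CASIN against young, at 0.36 ± 0.11 (edgeR adjusted p = 0.0629). It was called without CASIN 1, at 0.45 (edgeR adjusted p = 0.0451), where 5.2% of genes were called. Without CASIN 3 it was called too, at 0.45 (edgeR adjusted p = 0.0494), where 4.76% were. Without CASIN 2 no member was called, and the smallest edgeR adjusted p of a member was 0.22. Over all fits with 1 sample left out, the H2-T23 difference ran from 0.21 to 0.45.

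Whether these differences were unlike in stem and lymphoid-primed cells was tested directly, as the HSC-like minus LMPP-like difference of the group effects. Of 11776 genes, 1.41% were called for aged against young, 0.051% for CASIN against aged and 2.72% for CASIN against young, and 0 of 10 members in each (0, 0 and 2 were below 0.05 before adjustment in edgeR, as 9.94, 4.12 and 11.1% of genes were). H2-T23 was closest, its CASIN against young difference being larger in HSC-like cells by 0.33 ± 0.10 (edgeR adjusted p = 0.0803). For aged against young the corresponding value was 0.20 ± 0.11 (edgeR adjusted p = 0.586).

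The inducible proteasome was also read as its share of each catalytic pair, the UMIs of the inducible subunit over those of both. The share of Psmb8 over Psmb8 and Psmb5 was 70.6, 71.2 and 61.5% in young, 69.1, 65.7 and 63.2% in aged and 69.3, 73.3 and 63.7% in CASIN samples. Psmb9 over Psmb9 and Psmb6 was 51.5, 52.1 and 29.7% in young, 48.0, 36.8 and 31.3% in aged and 49.8, 54.2 and 29.1% in CASIN samples. Psmb10 over Psmb10 and Psmb7 was 60.3, 60.7 and 35.5% in young, 62.3, 47.1 and 39.6% in aged and 61.4, 65.6 and 40.9% in CASIN samples. Each group spanned both high and low values, and in all 3 pairs every batch 2 sample was below every batch 1 sample.

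None of the 9 comparisons of these shares between groups passed. Exact two-sided permutation tests gave p values of 0.4 to 1, adjusted 0.9 to 1, where 3 against 3 samples cannot go below 0.1. For aged against young the Psmb9 share differed by -3.74 percentage points in batch 1 and by 4.35 points in batch 2, and the Psmb8 share by -1.78 and 2.95 points. The Psmb10 share differed by 1.74 and 7.77 points, although its pooled difference was -2.57 points. The permutation test takes no account of the batch, and the groups hold unequal numbers of samples from each.

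**Figure D5:**
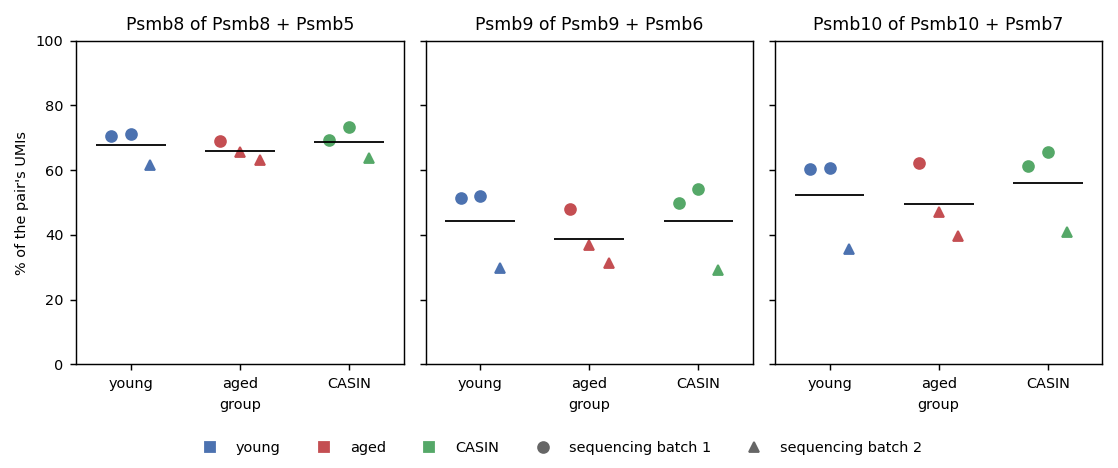
Share of the inducible subunit in the UMIs of each catalytic pair, in percent (vertical axis, 0 to 100), by group (horizontal axis); circles are samples of sequencing batch 1, triangles of batch 2, and lines are means of 3. For Psmb9 the triangles lay between 29.1 and 36.8% and the circles between 48.0 and 54.2%.

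The sequencing batches differed in most of these genes, as they did in 71.8% of all 13642 genes tested. A batch difference was therefore not particular to the members. In a comparison chosen after the data were seen, with group as a term, edgeR called 6 of 10 members higher in batch 2, where 34.3% of genes were, and 2 of 10 lower, where 37.6% were. H2-Q7 was at 211 to 383 CPM in batch 1 and 393 to 720 CPM in batch 2, a log2 difference of 0.84 ± 0.14 (edgeR adjusted p = 0.000347). B2m differed by 0.63 ± 0.07, H2-K1 by 0.56 ± 0.07, Tapbp by 0.55 ± 0.07, Tap2 by 0.49 ± 0.09 and H2-D1 by 0.26 ± 0.05, all higher in batch 2. Psmb9, at 186 to 256 CPM in batch 1 and 83.6 to 129 CPM in batch 2, was lower by a log2 difference of -1.27 ± 0.15 (edgeR adjusted p = 5.44e-05), and Psmb8 by -0.84 ± 0.10. Tap1 (0.42 ± 0.18, edgeR adjusted p = 0.0621) and H2-T23 (-0.21 ± 0.10, edgeR adjusted p = 0.0864) did not pass.

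Psmb10 (-0.96 ± 0.12) and the transcription factor Irf1 (-1.46 ± 0.20), both of the class I list, were lower in batch 2 too, and Nlrc5 differed by -0.04 ± 0.16. Mitochondrial shares were higher and interferon-high cells fewer in batch 2, as given above, and their part in the batch difference was not tested. Batch 2 holds 1 young, 2 aged and 1 CASIN sample, so group means without the batch as a term mix the batches in unequal shares, and no gene of the 13642 was called in any comparison when the term was left out.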

How the data were processed

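Deposited files were 10x matrices of raw UMI counts per gene and cell barcode for 9 samples, which the authors made with Cell Ranger 3.1.0 (GRCm38, mm10). Cells with 1000 to 40000 UMIs, at most 6000 genes, at most 10% mitochondrial UMIs and a natural log gene number within 0.4 of its regression on log UMIs were kept. Scrublet marked 67 cells (0.423%), too few to have worked on these libraries, so no doublets were removed. Counts were summed per sample and tested with edgeR 4.0.16 (quasi-likelihood, TMM, filterByExpr) over all genes with group and sequencing batch as terms, Benjamini-Hochberg adjustment and a threshold of 0.05; DESeq2 1.42.0 was an alternative. Clusters came from Seurat 5.3.0 (3000 variable features less the MHC and pathway genes, SCTransform, reciprocal PCA integration, neighbour graph on 35 components, resolution 0.4).

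Gates used cells thinned to 4000 UMIs, leaving out 6 to 68 shallower cells per sample, and samples with at least 20 cells in both gates. Their exact sign-flip permutation p-values were adjusted over the 2767 genes at 50 CPM or more, in place of the adjustment over members and gates that was planned. Named genes were all members, list genes with an adjusted p below 0.05 (up to 5 per comparison), the catalytic pairs and the 3 genes most alike to each member; Psmb10, Irf1 and Nlrc5 values outside these were chosen after they were seen. Members and lists were chosen with earlier results of these data known. Scripts were tested on simulated data. Surface protein libraries were not analysed here. Total UMIs in kept cells bound the precision, and UMI counting error is in every value. The result of the lymphocyte markers is not reported here.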

Additional observations from a re-analysis of the deposited data

Results flagged for a closer look

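B2m in class II-positive against class II-negative Procr+ cells had 1 sample apart from the others. The log2 difference of young 3 was 0.287, and those of the other 8 samples lay at 0.11 or below. Of 30 such sets examined, each of the differences of 9 samples, this set was the only one with a sample apart. Chance alone sets about 1 in 20 apart.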

How the results depend on the processing

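Of 1075 alternative values, 991 kept their direction and side of the threshold or stayed within 1.5 times a count, 12 lost and 34 gained a call, 22 counts moved and 16 values changed sign. No cause was tested for these. The members called in aged against young, all LSK cells, were 4 with DESeq2's Wald test, 2 with no filter on low counts (5% of genes), 1 with a mitochondrial limit of 5% (2.45%) and 2 in thinned cells (3.57%), and 0 to 1 when a sample was left out (H2-Q7 without aged 1, and Tap2, at -0.51 with an edgeR adjusted p of 0.0327, without aged 3). In CASIN against young they were 2 with the Wald test, 1 with no filter (5.34% of genes), 2 with only those groups fitted (13.4%) and 2 in thinned cells (4.2%). Leaving out a sample gave 0 to 2 there: H2-T23 without young 3 (edgeR adjusted p = 0.0497), and H2-K1 and H2-Q7 without aged 1 (edgeR adjusted p of 0.0424 and 0.0184). For all LSK cells, the shares of all genes called with a sample left out are not given here. The counts with a sample left out therefore cannot be set against a background share. By class, aged against young gave 1 with the Wald test, 2 with no filter (MPP3-like, 2.38% of genes, and cycling S-like, 2.51%) and 0 to 2 without a sample. The 2 came without aged 1, in MPP3-like (1.07% of genes) and LMPP-like cells (0.349%). CASIN against young by class gave 1 with MHC genes kept in the clustering (HSC-like, where 6.32% of genes were called), 1 with the replicate block (MPP3-like, 1.03%) and 0 to 1 without a sample. The calls without a sample were in HSC-like cells, without CASIN 1 (5.2% of genes) and without CASIN 3 (4.76%). With no filter it gave 5, of which 3 in HSC-like cells (6.01% of genes), 1 in MPP3-like (1.85%, against 0.334% with the filter) and 1 in cycling S-like cells (2.26%, against 0.662%). The HSC-like minus LMPP-like test of CASIN against young gave 1 with no filter, where 1.88% of genes were called, and 5 members were lower in cycling cells with no thinning, where 30.6% of genes were.

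The following values changed sign. Tap1 in aged against young was 0.16 with no batch term and 0.029 in thinned cells, and -0.28 to 0.35 without a sample. Psmb9 was 0.034 with the 5% mitochondrial limit, 0.0021 without interferon-high cells and -0.20 to 0.30 without a sample, and Psmb8 was -0.22 to 0.091. H2-T23 in the class II gate was -0.054 with no thinning. Tapbp in cycling cells was -0.044 to 0.016 and the aged minus young share of Psmb10 -10.9 to 2.47 points without a sample.

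Same-numbered samples deviated together only where they shared a sequencing batch (Pearson r across 2768 genes, which are not replicates, of 0.87 to 0.96, against -0.77 where they did not), and with the batch removed r was -0.52 to 0.40, so the numbers were not read as pairs. With the replicate block beside the batch, 80, 0 and 360 genes were called in aged against young, CASIN against aged and CASIN against young, against 560, 0 and 582 without it, and 0 members in each.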
